A study of Arabidopsis thaliana with 6 samples.

Results

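The flavonol branch was followed through 10 named Arabidopsis thaliana genes, of which 8 had counts among the 19616 genes measured. They are named by their place in the pathway: the enzymes CHS, CHI, F3H, F3'H and FLS1, the helper protein CHIL, the rhamnosyltransferases UGT78D1 and UGT89C1, and the regulators MYB12 and MYB111. F3H (AT3G51240) and MYB12 (AT2G47460) had no counts and were not analysed here. On the strand opposite F3H, the annotated gene AT3G51238 covers 1415 of its 1508 exonic bases. Why F3H had no counts was not tested. RNA-Seq was made from whole wild-type Col-0 seedlings, roots and shoots ground together, with 3 libraries from treated and 3 from control seedlings. The treated group received the bacterium Priestia megaterium YC4-R4 suspended in 0.45% NaCl, and the control (mock) group received the same carrier with no bacteria. All seedlings had grown for 5 days on plates, were moved to soil, were inoculated 24 h later and were collected 7 days after treatment (7 DAT), at a labelled age of 13 days. The replicates were described by the study as biological, and the p-values below measure the spread between these libraries.

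Flavonols are yellowish to colourless phenolic compounds that absorb ultraviolet light and scavenge reactive oxygen, and in Arabidopsis seedlings they are also known for damping the transport of auxin. Chalcone synthase and chalcone isomerase build the flavonoid skeleton, hydroxylases decorate it, and flavonol synthase turns dihydroflavonols into flavonols, in competition with dihydroflavonol reductase (DFR), which leads to anthocyanins. MYB11, MYB12 and MYB111, closely related R2R3-MYB proteins, switch on the early genes of the route, and glycosyltransferases then attach sugars to the finished flavonols. R2R3-MYB proteins bind AC-rich elements, and bZIP proteins such as HY5, an activator of light-induced genes, bind the ACGTG core, which is complete in the palindromic G-box.

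Total counts were 21904205, 15292377 and 20756449 in the treated libraries, and 10804936, 12263720 and 20040520 in the control libraries. Levels are given as TMM-normalized CPM, that is, CPM after a scaling of library sizes whose factors lay between 0.971 and 1.018. A call of higher or lower in treated seedlings needed a fold of 1.5 or more and an adjusted p no larger than 0.05 in edgeR's quasi-likelihood test, with Benjamini-Hochberg adjustment over the 19615 genes tested.

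Sequence before the gene start is shown for CHS, the entry enzyme, for FLS1, the member with the largest change, and for the 2 measured members with an AC element, CHIL and UGT89C1. Each line holds the 250 bases before the gene start in RefSeq's TAIR10.1 annotation, 5′ to 3′ on the strand of the gene. Capitals mark each match on either strand to the AC elements AC-I (ACCTACC), AC-II (ACCAACC) and AC-III (ACCTAAC), to the G-box (CACGTG) or to the core (ACGTG). The windows are chr5:4488226-4488475 (plus strand) for CHS, chr5:2803583-2803832 (plus strand) for FLS1, chr5:1563036-1563285 (plus strand) for CHIL and chr1:1821895-1822144 (minus strand) for UGT89C1.
CHS: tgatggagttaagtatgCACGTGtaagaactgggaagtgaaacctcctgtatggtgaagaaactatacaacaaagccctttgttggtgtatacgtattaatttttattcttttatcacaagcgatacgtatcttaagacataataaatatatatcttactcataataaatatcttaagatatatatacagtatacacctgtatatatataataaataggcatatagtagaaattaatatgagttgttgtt
FLS1: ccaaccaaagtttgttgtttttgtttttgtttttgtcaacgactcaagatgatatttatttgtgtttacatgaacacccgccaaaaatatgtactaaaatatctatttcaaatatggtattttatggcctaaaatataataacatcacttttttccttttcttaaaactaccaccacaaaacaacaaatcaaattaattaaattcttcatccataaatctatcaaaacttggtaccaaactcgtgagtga
CHIL: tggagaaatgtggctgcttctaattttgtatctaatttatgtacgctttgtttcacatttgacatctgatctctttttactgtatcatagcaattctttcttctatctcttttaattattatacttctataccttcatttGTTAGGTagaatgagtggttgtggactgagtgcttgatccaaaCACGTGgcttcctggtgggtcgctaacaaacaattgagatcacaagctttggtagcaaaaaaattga
UGT89C1: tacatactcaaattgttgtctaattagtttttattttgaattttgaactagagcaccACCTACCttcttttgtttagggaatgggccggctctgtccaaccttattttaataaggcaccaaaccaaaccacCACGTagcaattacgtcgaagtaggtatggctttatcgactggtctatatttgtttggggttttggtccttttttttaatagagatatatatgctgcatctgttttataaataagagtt

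The search itself covered 250 bases before and 50 bases after the gene start of each measured member, both strands. The ACGTG core occurred in 6 of the 8 members, against 26.7% of 27443 annotated promoters of the same length. Among the 19175 promoters of measured genes the share was 27.7%. The full G-box, which contains the core on both strands, occurred in 3 of 8, against 7.68% of all promoters and 8.72% of those of measured genes. CHS carried it with its first base at position -233 from the start, CHIL at -67, and CHI at +40, inside the transcript. In FLS1 and MYB111 the core lay after the start, at +29 and +21. An AC element occurred in 2 of 8 members, against 7.29% of all promoters and 7.38% of those of measured genes. These were ACCTAAC on the opposite strand of CHIL at -110, seen there as GTTAGGT, and ACCTACC in UGT89C1 at -193. UGT89C1 also held the core on the opposite strand at -119. F3'H and UGT78D1 held none of these letters in the window.

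The measured flavonol route was higher in treated seedlings from its entry enzyme to the rhamnosyltransferase UGT78D1. Of the 8 measured members, 7 passed both limits as higher and 0 as lower, where 1.73% of all genes tested were called higher and 1.54% lower. All 8 passed the adjusted p alone as higher, against 5.1% of all genes (4.52% were lower by that limit). In each of the 8, the lowest treated library was above the highest control library, which held for 14.5% of all genes (the reverse held for 13.8%). The median log2 fold change of the 8 was 0.80, beside -0.0049 over all genes tested. Without treated library 3 or without control library 1, UGT78D1 dropped below the fold limit (log2 fold change 0.55 and 0.54) and 6 members remained called. With counts thinned to the smallest library total, 7 were called higher. In such bulk material, more cells of a kind and more RNA per cell cannot be told apart.

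**Figure D1:**
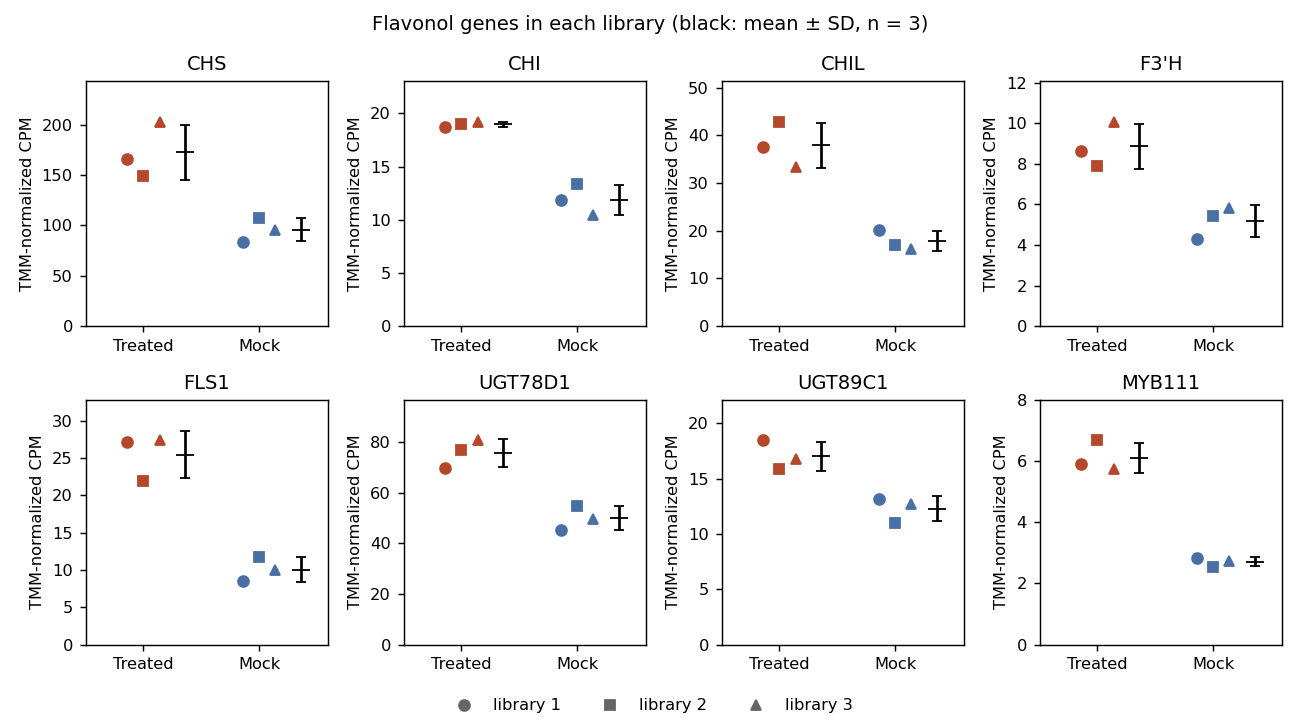
TMM-normalized CPM (vertical axes, from 0) of the 8 measured flavonol genes in the 3 treated libraries (red, left) and the 3 control (Mock) libraries (blue, right); marker shape gives the library number, and black bars give mean ± SD. In every panel the 3 treated points sit above the 3 control points, with the narrowest gap in UGT89C1 and the widest, relative to the level, in MYB111.

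CHS (AT5G13930), chalcone synthase, joins coumaroyl-CoA with malonyl-CoA and commits carbon to flavonoids. In TAIR10.1 it spans 4488476 to 4490264 of chromosome 5, plus strand. It had 166, 149 and 203 CPM in treated libraries, against 83.9, 107 and 95.8 CPM in control libraries. Every treated library was above every control library, although treated library 3 stood well above treated library 2. The means were 173 ± 27.7 CPM in treated and 95.6 ± 11.5 CPM in control seedlings (SD, n = 3 each), a log2 fold change of 0.85 ± 0.12 (SE; adjusted p = 0.000715, edgeR).

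CHI (AT3G55120, chromosome 3, minus strand, 20430059 to 20431597), chalcone isomerase, closes the ring of the chalcone. Its levels were 18.7, 19.0 and 19.2 CPM in treated libraries, against 11.9, 13.3 and 10.5 CPM in control libraries. The treated libraries lay closer together than those of any other member. The log2 fold change was 0.69 ± 0.10 (SE; adjusted p = 0.0013, edgeR), a fold of 1.61 with a 95% interval of 1.38 to 1.88.

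CHIL (AT5G05270, chromosome 5, plus strand, 1563286 to 1565324) is a chalcone isomerase-like protein without isomerase activity that is known to promote chalcone formation by chalcone synthase. It had 37.6, 42.8 and 33.4 CPM in treated libraries, against 20.1, 17.0 and 16.2 CPM in control libraries. The lowest treated library was 1.66 times the highest control library. The means were 37.9 ± 4.73 CPM in treated and 17.8 ± 2.09 CPM in control seedlings, a log2 fold change of 1.1 ± 0.11 (SE; adjusted p = 9.74e-05, edgeR), so the helper rose by a fold of 2.15 (95% interval 1.82 to 2.54).

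F3'H (AT5G07990, chromosome 5, plus strand, 2560328 to 2563137), the hydroxylase that turns kaempferol-type into quercetin-type precursors, was among the members with few reads. Its levels were 8.62, 7.90 and 10.1 CPM in treated libraries, against 4.28, 5.43 and 5.84 CPM in control libraries. The groups did not overlap, with the lowest treated library at 1.35 times the highest control library. The log2 fold change was 0.75 ± 0.15 (SE; adjusted p = 0.0072, edgeR), and its 95% interval ran from a fold of 1.35 to 2.11.

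FLS1 (AT5G08640, chromosome 5, plus strand, 2803833 to 2805606), the main flavonol synthase of Arabidopsis, had the largest change of the 8. It had 27.2, 21.9 and 27.4 CPM in treated libraries, against 8.48, 11.8 and 9.94 CPM in control libraries. Treated library 2 was the lowest of its group and still 1.86 times the highest control library. The means were 25.5 ± 3.11 CPM in treated and 10.1 ± 1.65 CPM in control seedlings, a log2 fold change of 1.34 ± 0.13 (SE; adjusted p = 6.57e-05, edgeR) and a fold of 2.54 (95% interval 2.09 to 3.08).

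MYB111 (AT5G49330, chromosome 5, minus strand, 19998823 to 20001572), the measured activator of the route, was the member with the fewest reads. Its counts were 130, 104 and 116 in treated libraries, against 31, 31 and 55 in control libraries. These gave 5.90, 6.68 and 5.76 CPM in treated libraries, against 2.83, 2.55 and 2.75 CPM in control libraries. The gap between the groups was the widest of the 8, the lowest treated library being 2.04 times the highest control library. The log2 fold change was 1.16 ± 0.15 (SE; adjusted p = 0.000502, edgeR), a fold of 2.24 (95% interval 1.78 to 2.82).

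UGT78D1 (AT1G30530, chromosome 1, plus strand, 10814612 to 10816615) attaches rhamnose at the 3-hydroxyl of flavonols. It had 69.9, 77.0 and 80.8 CPM in treated libraries, against 45.4, 54.9 and 49.5 CPM in control libraries. Its log2 fold change of 0.60 ± 0.08 (SE; adjusted p = 0.000881, edgeR) was just past the fold limit, at a fold of 1.52 (95% interval 1.34 to 1.73).

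UGT89C1 (AT1G06000, chromosome 1, minus strand, 1820308 to 1821894) attaches rhamnose at the 7-hydroxyl. It had 18.5, 15.9 and 16.7 CPM in treated libraries, against 13.1, 11.0 and 12.7 CPM in control libraries. The groups did not overlap, yet its log2 fold change of 0.47 ± 0.10 (SE; adjusted p = 0.0137, edgeR) was short of the fold limit, at a fold of 1.39 (95% interval 1.19 to 1.62). Its adjusted p was 0.0711 without treated library 1, 0.0695 without control library 2, 0.0527 without control library 3 and 0.0607 with thinned counts. An annotated gene on the other strand, AT1G06002, covers 1580 of its 1587 exonic bases. AT1G06002 was not among the genes measured. Whether the counting used strand is not stated in the sources used. It is thus not known whether reads of the pair were told apart.

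Per kilobase of annotated exon, the members kept much the same order of level in both groups, with CHS at the top and MYB111 at the bottom. In treated seedlings the mean levels were 101 CPM per kb for CHS, 39.8 for UGT78D1, 27.4 for CHIL, 17.1 for CHI, 15.8 for FLS1, 10.7 for UGT89C1, 4.59 for F3'H and 3.75 for MYB111. In control seedlings they were 56.1 CPM per kb for CHS, 26.2 for UGT78D1, 12.8 for CHIL, 10.7 for CHI, 7.74 for UGT89C1, 6.22 for FLS1, 2.69 for F3'H and 1.66 for MYB111. FLS1 thus stood above UGT89C1 in treated seedlings, with no overlap of libraries, and below it in control seedlings, where their libraries overlapped. The libraries of CHI and FLS1 overlapped in treated seedlings, and those of CHIL and CHI in control seedlings. Every other pair of neighbours in either order was separated in all 3 libraries.

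The members did not all vary in the same direction among the libraries of 1 group. In treated seedlings, CHS, F3'H, FLS1 and UGT89C1 were lowest in library 2, whereas CHIL and MYB111 were highest there and lowest in library 3. In control seedlings, CHS, F3'H, FLS1 and UGT78D1 were lowest in library 1, where CHIL, MYB111 and UGT89C1 were highest. CHS had a coefficient of variation of 16.0% among treated and 12.0% among control libraries, well above the counting error of at most 3.29%. In MYB111 the coefficient was 8.13% among treated and 5.24% among control libraries, below its counting error of at least 8.77% and 13.5%. CHI had 1.26% among treated libraries, also below its counting error of at least 4.92%, and 11.9% among control libraries.

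**Figure D2:**
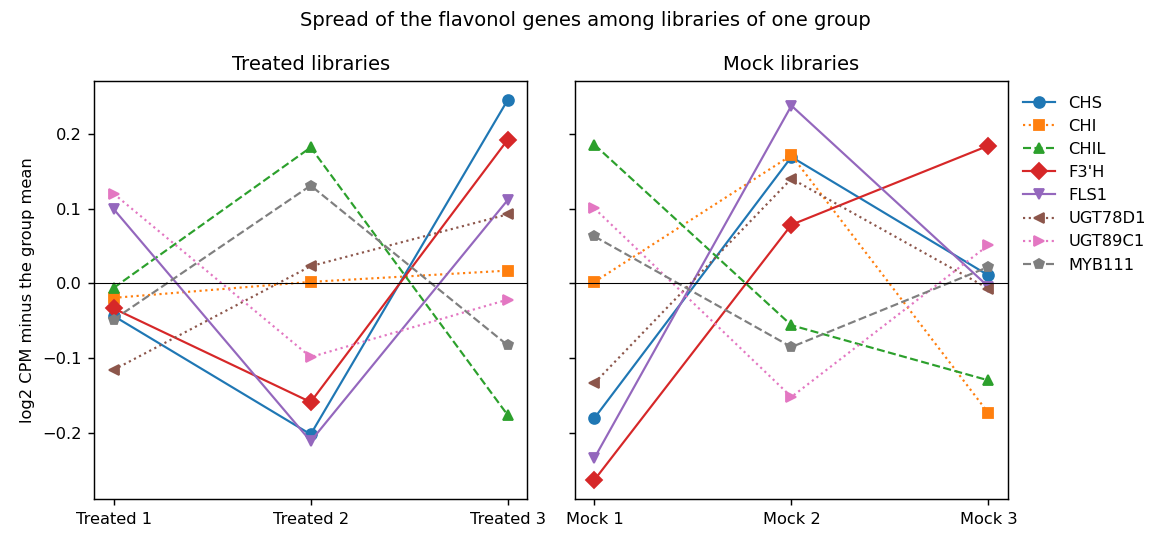
Deviation of each flavonol gene in each library from the mean of its group, in log2 CPM, for the treated libraries (left panel) and the control (Mock) libraries (right panel); lines only join the points of 1 gene, since library numbers have no order. CHS, F3'H and FLS1 (solid) dip in treated library 2, where CHIL and MYB111 (dashed) peak.

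The balance between the branches was read as ratios of 2 transcripts within a library, which do not depend on library size. With 3 libraries against 3, the exact two-sided permutation test cannot give a p below 0.1, and 6 ratios were compared. FLS1 over DFR, the branch point between flavonols and anthocyanins, was 0.522, 0.382 and 0.514 in treated libraries, against 0.239, 0.324 and 0.276 in control libraries. FLS1 over LDOX, the anthocyanidin synthase downstream of DFR, was 0.557, 0.414 and 0.607 in treated libraries, against 0.259, 0.350 and 0.332 in control libraries. Both ratios were higher in every treated library than in any control library, by 0.76 and 0.74 on the log2 scale (exact permutation p = 0.1 each, adjusted p = 0.12).

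FLS1 was also set against CHS, F3'H and UGT78D1 of its own route, and its ratios to the remaining members were not computed. CHS over FLS1 was 6.12, 6.80 and 7.41 in treated libraries, against 9.90, 9.09 and 9.64 in control libraries. F3'H over FLS1 was 0.317, 0.361 and 0.368 in treated libraries, against 0.505, 0.462 and 0.588 in control libraries. UGT78D1 over FLS1 was 2.57, 3.52 and 2.95 in treated libraries, against 5.35, 4.66 and 4.98 in control libraries. All 3 ratios were lower in each treated library, with log2 differences of -0.50, -0.57 and -0.74 (exact permutation p = 0.1 each, adjusted p = 0.12). FLS1 had the largest change of the measured members and enters every ratio with DFR, LDOX, CHS, F3'H or UGT78D1. These ratios are thus not independent, and they restate its log2 fold change beside the smaller ones of its partners. The ratio of the rhamnosyltransferases, UGT89C1 over UGT78D1, overlapped between the groups, at 0.264, 0.206 and 0.207 in treated libraries, against 0.289, 0.201 and 0.256 in control libraries (log2 difference -0.13, exact permutation p = 0.7).

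**Figure D3:**
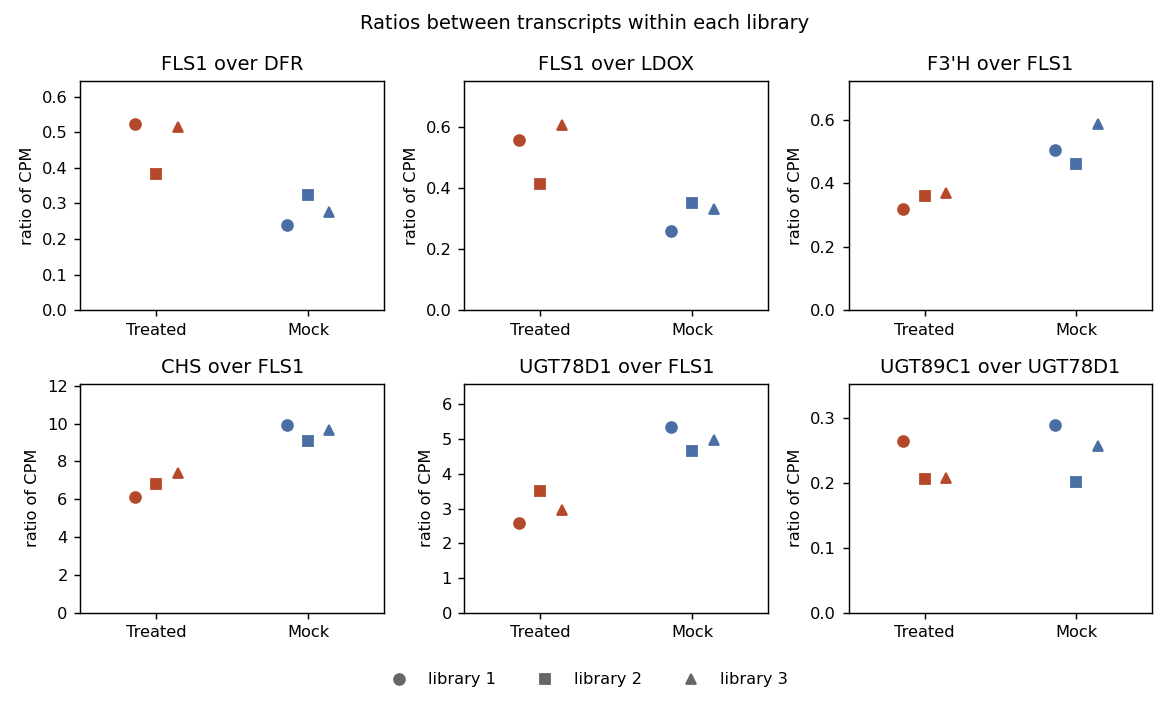
Ratios of CPM between 2 transcripts in each library (vertical axes, from 0), with the 3 treated libraries in red on the left and the 3 control (Mock) libraries in blue on the right of each panel. FLS1 over DFR and FLS1 over LDOX are higher in all treated libraries, CHS, F3'H and UGT78D1 over FLS1 are lower in all of them, and UGT89C1 over UGT78D1 overlaps.

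The enzymes that supply coumaroyl-CoA and malonyl-CoA to chalcone synthase were examined next. Of 12 phenylpropanoid entry enzymes, 1 was called higher and 0 lower, with a median log2 fold change of 0.09. That gene was 4CL3 (AT1G65060), the coumarate-CoA ligase tied to flavonoids, with 22.3, 23.8 and 24.4 CPM in treated libraries, against 9.66, 11.6 and 10.5 CPM in control libraries. Its log2 fold change of 1.15 ± 0.10 (SE; adjusted p = 3.23e-05, edgeR) lay between those of CHIL and MYB111. The other ligases, 4CL1, 4CL2 and 4CL5, had log2 fold changes of 0.10, 0.07 and 0.12 and adjusted p from 0.51 to 0.77 (edgeR). PAL1, a phenylalanine ammonia-lyase that opens the whole route, and ACC1, which makes malonyl-CoA, passed the adjusted p only, with log2 fold changes of 0.36 and 0.28.

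The FLS1 paralogs did not follow it past the limits. Of the 4 measured, 0 were called and 1, FLS5, had an unadjusted p under 0.05, at a log2 fold change of 0.21 (adjusted p = 0.0852, edgeR). FLS5 had the higher level per kilobase, with a mean of 40.6 CPM per kb in treated and 35.2 CPM per kb in control seedlings, beside 15.8 and 6.22 for FLS1. FLS3 and FLS4 had log2 fold changes of 0.14 and -0.18 (adjusted p = 0.61 and 0.73, edgeR). Of 8 other decoration and sugar-donor genes, 1 was called higher and 0 lower (median log2 fold change 0.17). It was UGT78D2 (AT5G17050), which attaches glucose at the 3-hydroxyl of flavonols and anthocyanidins, with 39.5, 41.2 and 46.0 CPM in treated libraries, against 22.0, 27.7 and 29.3 CPM in control libraries. Its log2 fold change was 0.67 ± 0.10 (SE; adjusted p = 0.00169, edgeR), and without control library 1 it was 0.56, below the fold limit. RHM1, an enzyme of UDP-rhamnose synthesis, and DTX35, a transporter of the MATE family, passed the adjusted p only (log2 fold change 0.44 and 0.37).

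Anthocyanin enzymes were also higher, with log2 fold changes from 0.26 to 0.89, a range that overlapped that of the flavonol members (0.47 to 1.34). Of 11 measured anthocyanin and proanthocyanidin enzymes, 7 were called higher and 0 lower, with a median log2 fold change of 0.61. DFR (AT5G42800) had 52.0, 57.4 and 53.3 CPM in treated libraries, against 35.6, 36.4 and 36.1 CPM in control libraries, a log2 fold change of 0.59 ± 0.07 (SE; adjusted p = 0.000272, edgeR). LDOX (AT4G22880) rose by 0.61 ± 0.08 on the log2 scale (SE; adjusted p = 0.000626, edgeR). Both lay so near the fold limit that leaving out treated library 2 ended the call, as did leaving out control library 1 for DFR (0.55 and 0.58) or control library 3 for LDOX (0.56 each time). The other called genes were the glycosyltransferases UGT79B1 (0.70, and 0.57 without control library 1) and UGT75C1 (0.78), the malonyltransferase 5MAT (0.71), the glutathione transferase GSTF12 (0.65), which carries pigment to the vacuole, and the acyltransferase SCPL10 (0.89). Next to these, 1 of 10 monolignol and sinapate enzymes was called higher and 0 lower, UGT84A2, a sinapate glucosyltransferase, with a log2 fold change of 0.80 ± 0.07 (SE; adjusted p = 3.62e-05, edgeR). CAD4, FAH1 and CAD5 of that list passed the adjusted p only (0.48, 0.49 and 0.26).

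**Figure D4:**
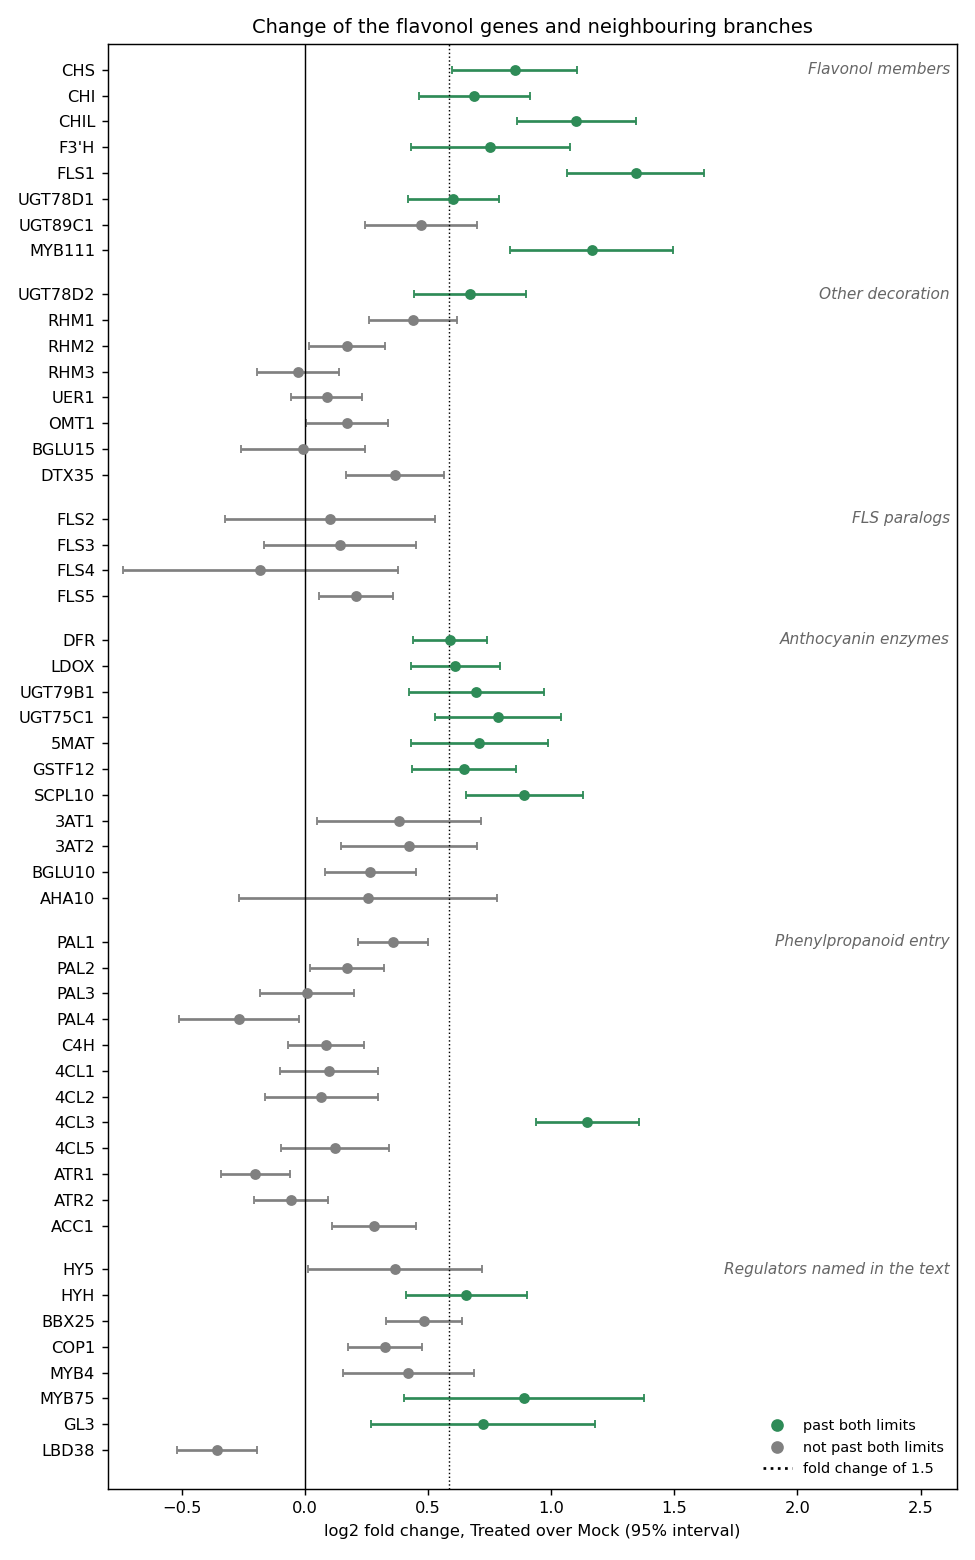
Log2 fold change of treated over control (Mock) libraries with its 95% interval (horizontal axis) for the flavonol members, the measured genes of 4 neighbouring lists and the regulators named in the text; green points passed both limits, grey ones did not, and the dotted line is a fold change of 1.5. FLS1, 4CL3, MYB111 and CHIL lie furthest to the right, and 4CL3 is the only green point among the phenylpropanoid entry enzymes.

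Of 19 measured genes listed as other regulators of the flavonol route, 1 was called higher and 0 lower, with a median log2 fold change of 0.11. The adjusted p alone was passed by 4 of the 19 as higher and 0 as lower. HYH (AT3G17609), the bZIP partner of HY5, had 16.0, 19.4 and 18.0 CPM in treated libraries, against 12.8, 10.6 and 10.6 CPM in control libraries (log2 fold change 0.66 ± 0.11, SE; adjusted p = 0.00322, edgeR). HY5 itself differed by 0.37 ± 0.16 on the log2 scale (adjusted p = 0.197, edgeR), with overlapping groups. MYB4, a repressor of phenylpropanoid genes, had 0.42 (adjusted p = 0.0507, edgeR), and BBX25 and COP1, which act in light signalling, passed the adjusted p only (0.48 and 0.32). MYB11 was not analysed here. Of 11 regulators of anthocyanin genes, 2 were called higher and 0 lower: MYB75, the activator known as PAP1 (0.89, adjusted p = 0.0266, edgeR), and GL3, a bHLH protein (0.72, adjusted p = 0.0493, edgeR). Both calls were fragile, since MYB75 had an adjusted p of 0.0919 without control library 2 and 0.159 without control library 3. GL3 lost its call in 10 of 16 alternatives, with adjusted p up to 0.166. LBD38, a repressor of anthocyanin genes, passed the adjusted p only, at -0.36.

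By correlation with the mean standardized level of the members over the 6 libraries, the closest genes outside the list were AT2G31790, a UDP-glycosyltransferase (Pearson r = 0.9995), RPT2 (0.9989), ECHID (0.9987), VTC2 (0.998) and HD2B (0.9972). RPT2 acts in phototropism, ECHID in phylloquinone synthesis and VTC2 in ascorbate synthesis. VTC2 alone of the 5 passed both limits, with a log2 fold change of 0.82. The 6 points fall into 2 groups and share their libraries, and 1054 genes outside the list (5.38%) reached an r of at least 0.9, so these values describe a pattern that many genes had.

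Both shoot and root RNA were present in all libraries, as the label of whole seedlings says. Summed root marker levels were 1007 to 1051 CPM in treated and 882 to 924 CPM in control libraries. PYK10 made up most of each sum, with 966, 972 and 917 CPM in treated and 805, 825 and 840 CPM in control libraries. The median log2 fold change of the 8 root markers was -0.02. Of the 8, 0 were called, and SCR (log2 fold change 0.31) passed the adjusted p. The 10 green tissue markers summed to 32170 to 48620 CPM in treated and 34220 to 45230 CPM in control libraries, 1 of them called higher (RBCS1B), a call lost without treated library 1 or 3 or control library 1 or 3. Of 9 root hair markers, 7 were called higher, with sums of 41.5 to 47.4 CPM in treated and 20.1 to 24.9 CPM in control libraries. PRP3, RHS13 and RHS19 kept their calls under every alternative, whereas EXPA7, EXPA18, COBL9 and LRX1 had adjusted p up to 0.106, 0.200, 0.127 and 0.0603 (edgeR). Of 6 shoot epidermis markers, where flavonols are known to accumulate, 0 were called, 3 passed the adjusted p as higher (CER1 0.49, PDF2 0.29, FDH 0.25), and the sums were 921 to 932 CPM in treated and 765 to 830 CPM in control libraries. None of these markers had a count of 0 in any library, but only genes that reached a CPM of 1 in 2 or more libraries were available. EXPA18, at 0.36, 1.48 and 0.70 CPM in control libraries, met that limit only with its treated libraries. Of the listed markers, 4 root, 1 root hair and 1 shoot epidermis marker had no counts and were not analysed. The clock genes LHY, CCA1 and RVE8 were higher (3 of 11 called, log2 fold changes of 0.66, 0.67 and 0.66), RVE8 not without treated library 2 (0.52) or control library 3 (adjusted p = 0.0621, edgeR). The clock genes PRR7, TOC1 and LUX passed the adjusted p as lower, short of the fold limit (-0.26, -0.28 and -0.33). In 5 of the 11, every treated library was below every control library, which held for 13.8% of all genes tested. Over all genes, 1.73% were called higher and 1.54% lower. Of 10 genes listed as a rapid response to handling, 8 were called lower: CBF1, RRTF1, SZF1, SZF2, ZAT10, ZAT12, WRKY40 and JAZ1. The 10 summed to 594 to 649 CPM in treated and 996 to 1127 CPM in control libraries. TCH2 passed the adjusted p only (-0.55), and TCH4 did not pass it (-0.34, adjusted p = 0.0645, edgeR). The list was named for handling, which was not measured here. The part of cell makeup, clock phase and handling in the rise of the flavonol genes was not tested.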

How the data were processed

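RNA was extracted from cleaned, frozen whole seedlings, and the labels name both a TruSeq RNA kit and a NEBNext Ultra Directional kit. Per the labels and the study's methods, Trimmomatic 0.36 trimmed the reads, HISAT2 2.1.0 placed them on TAIR10 and HTSeq-count gave the counts per gene that the authors deposited. The CPM columns, also deposited, divide these by library totals. The deposited log2 fold changes, log2 CPM values, p-values and FDR come from the authors' edgeR comparison and were not used. The table holds only genes that reached a CPM of 1 in 2 or more libraries.

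The counts were fitted by edgeR 4.0.16 (R 4.3.3) without covariates, after filterByExpr (1 gene removed) and TMM scaling, and tested by quasi-likelihood. The common biological coefficient of variation was 0.0792. The limits for calls (fold 1.5, adjusted p 0.05) follow the study's methods. Alternatives used DESeq2 1.42.0, limma-voom (limma 3.58.1), edgeR's exact test, other scalings, filters and fold limits, thinned counts, a block for replicate number and each library left out. The fit was tested on simulated data. Intervals of folds are at 95% confidence, and counting errors cover sampling of reads only. Exon lengths, positions and promoter windows came from RefSeq's TAIR10.1 annotation, in which 19549 gene IDs matched.

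The members, the other gene lists and the rule for named genes were chosen with earlier results of these data known, so lists are described by counts only. The rule took all members, the called genes of each other list, and up to 3 with the smallest adjusted p where fewer were called. It also took UGT78D2, DFR, LDOX, HY5, MYB11, MYB4 and PAL1, and the 5 genes most like the members. Genes named outside this rule, such as 4CL1, PRR7, TOC1 and LUX, were chosen after their values were seen. Groups of 3 were not tested for outlying libraries.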

Additional observations from a re-analysis of the deposited data

How the results depend on the processing

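The 7 calls among the flavonol members held under scaling by upper quartile, by DESeq2 size factors or by library size alone, under other filters, DESeq2, edgeR's exact test, limma-voom and thinned counts. Leaving out each library gave 6 to 7 higher and 0 lower. A fold limit of 2 left 3 (CHIL, FLS1 and MYB111), and the adjusted p alone gave 8. Replicate numbers did not pair the libraries: the deviations of same-numbered libraries correlated at -0.159, -0.248 and 0.126. Those of differently numbered libraries correlated at -0.292 to 0.379, the highest between treated library 2 and control library 1. With a replicate block, 7 members were called higher and 0 lower, and 20 genes of the other lists higher and 8 lower, against 24 and 8 without it. In those lists, the adjusted p alone gave 38 higher and 13 lower, and a fold limit of 2 gave 5 and 3. Leaving out each library gave 15 to 21 higher, the lowest without control library 3, and 8 to 9 lower. FLS4, not called in any fit, had log2 fold changes from -0.50 (thinned counts) to 0.018 (without treated library 3), and -0.41 without treated library 1. The 6 ratios kept their direction, with FLS1 over DFR between 0.65 and 0.90 and UGT89C1 over UGT78D1 between -0.28 and -0.02 on the log2 scale. The root hair calls of EXPA7, EXPA18 and COBL9 were each lost in 6 or more alternatives. Low counts limit MYB111 and F3'H.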
